A study of Mus musculus with 2 samples.

Results

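Keratins are the intermediate filament proteins of epithelial cells. A type II keratin pairs with a type I keratin, so filaments need a member of each type. Krt7 and Krt8 are type II and Krt18 is type I, and these form the filaments of simple epithelium such as the ducts and acini of glands. Krt14 and Krt17 are type I keratins of basal and myoepithelial cells, where Krt14 pairs with Krt5. Epcam encodes an adhesion molecule of the epithelial cell surface. In a salivary gland, secretory acini and ducts are epithelium, wrapped in part by myoepithelial cells, and the stroma around them holds fibroblasts, nerve, vessels and immune cells.

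The 6 genes Krt7, Krt8, Krt14, Krt17, Krt18 and Epcam were taken by symbol from 3 deposited tables of single-cell RNA sequencing that list 5238 genes in all. All 6 were listed in each table, with 11 entries in the control table, 6 in the FGF2 table and 22 in the table of both libraries after integration. The cells came from salivary gland organoid stroma of CD-1 mice, an outbred stock, with an age label of embryonic day 16 plus 7, in which the unit of the added number is not stated. The groups were a control, with 5023 captured cells in 1 library, and FGF2, a fibroblast growth factor, with 10107 captured cells in 1 library. The dose and timing of FGF2, the sorting of the cells and the treatment of doublets are likewise not given in the sources used here. With 1 library in each group, FGF2 and the library cannot be told apart, no difference was tested, and cells are not replicates. The depth per cell is unknown, so no interval is given.

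Each entry compares 1 cluster of cells with all other cells of its table, giving the percentage of cells with a count (the share) in both and the log ratio of their averages. The label of stroma fitted most cells, since Pdgfra, a receptor gene typical of fibroblasts, had a share of 80.4% in the control cells outside cluster 9 and 86.2% in the FGF2 cells outside cluster 11 in the authors' deposited tables. Other fibroblast genes varied in the same cells of the authors' deposited tables. Col1a2 was higher, at 94.8% (control) and 92.3% (FGF2), while Lum (52.4%, control) and Col3a1 (32.7%, FGF2) were lower. The clusters called epithelial here are 9 and 13 of the control table and 11 of the FGF2 table. From the listed shares they were recovered as 2.83%, 0.517% and 2.88% of the cells of their library. The control library thus had an epithelial part of 3.35% in all, and the FGF2 library one of 2.88%.

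All 6 genes lie on chromosomes 11, 15 and 17 of the mouse genome (GRCm38, GENCODE release M21). Krt8 (chr15:101996698-102004482, minus strand) and Krt18 (chr15:102028180-102032027, plus strand) are neighbours whose starts face each other, 23.7 kb apart. Krt7 (chr15:101411043-101430313, plus strand) lies in the same keratin cluster. Krt14 (chr11:100203162-100207548) and Krt17 (chr11:100256217-100261029) are both on the minus strand with 48.7 kb between them. Epcam lies at chr17:87635979-87651129 on the plus strand.

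The promoters of 4 members, Krt8, Krt18, Krt7 and Epcam, are shown. Each runs 5′ to 3′ on the gene's strand, from 250 bases before to 50 bases after the RefSeq start (GRCm38.p6). RefSeq gave promoters for 5 of the 6 members, and that of Krt14 is not shown. For Krt8, Krt18 and Krt7 the RefSeq start lies inside the gene span given above, and for Epcam at its first base. Capitals mark matches, on either strand, to TATAAA (the TATA box) or GGGCGG (the GC box of Sp1-type factors).
Krt8, chr15:102004293-102004592, minus strand: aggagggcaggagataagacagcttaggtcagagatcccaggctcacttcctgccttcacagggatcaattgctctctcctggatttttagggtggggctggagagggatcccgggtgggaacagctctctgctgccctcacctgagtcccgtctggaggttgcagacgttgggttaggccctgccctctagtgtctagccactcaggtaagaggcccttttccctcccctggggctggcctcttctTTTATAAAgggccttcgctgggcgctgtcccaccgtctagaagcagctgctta
Krt18, chr15:102027966-102028265, plus strand: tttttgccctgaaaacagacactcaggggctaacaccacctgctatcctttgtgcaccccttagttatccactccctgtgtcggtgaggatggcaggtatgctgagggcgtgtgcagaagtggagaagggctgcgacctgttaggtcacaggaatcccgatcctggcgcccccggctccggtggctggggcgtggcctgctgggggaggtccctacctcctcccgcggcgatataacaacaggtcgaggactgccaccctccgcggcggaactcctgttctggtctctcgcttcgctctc
Krt7, chr15:101412153-101412452, plus strand: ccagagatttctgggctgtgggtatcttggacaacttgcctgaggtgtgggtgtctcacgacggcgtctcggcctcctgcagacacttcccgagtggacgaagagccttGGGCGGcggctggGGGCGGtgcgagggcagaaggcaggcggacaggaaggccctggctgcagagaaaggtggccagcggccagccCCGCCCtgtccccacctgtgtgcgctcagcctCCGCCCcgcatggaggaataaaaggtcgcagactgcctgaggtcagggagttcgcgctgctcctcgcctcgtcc
Epcam, chr17:87635729-87636028, plus strand: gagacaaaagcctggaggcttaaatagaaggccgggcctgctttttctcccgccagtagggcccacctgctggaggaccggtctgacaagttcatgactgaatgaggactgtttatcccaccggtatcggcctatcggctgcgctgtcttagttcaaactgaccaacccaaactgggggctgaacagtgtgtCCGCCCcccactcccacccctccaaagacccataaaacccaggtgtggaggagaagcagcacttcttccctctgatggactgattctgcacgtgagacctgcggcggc
The Krt8 window held TATAAA 2 times, a motif found in 13.6% of 32851 promoters. The matches, 1 on each strand, overlapped with first bases at -3 and -1 from the RefSeq start, so their run spans that start. The Krt7 window held GGGCGG 4 times and that of Epcam 1 time, against 35.7% of promoters with any match. The AP-1 motif TGANTCA (7.81% of promoters) and the Grainyhead-like motif AACNNGTT (4.20%) were searched too and had 0 matches in the 4 windows. The Krt18 window had 0 matches to any of the 4 motifs, as had the Krt14 window, which is not shown. The letters say nothing of which factors bind there.

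In control cluster 13 all 6 members were found in most cells. The authors' deposited table gave Krt14 in 92.3% of these cells against 2.2% of all other control cells. Epcam followed at 88.5% against 1.4%, Krt18 at 84.6% against 3.8% and Krt8 at 80.8% against 3.4%, also from the authors' deposited table. Krt7 (against 7.2%) and Krt17 (against 2.8%) shared the lowest value in this cluster of the authors' deposited table, 69.2%. Cluster 13 thus held the simple keratins, the basal keratins and Epcam side by side. Its leading genes were Igfbp5, Krt14 and Itga6, the last an integrin chain of basal cells.

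Control cluster 9 had the same 5 keratins at lower shares and no entry for Epcam. Krt18 was listed in 52.8% of its cells against 2.8% of the others, and Krt8 in 48.6% against 2.5%, in the authors' deposited table. Krt7 was also at 48.6%, against 6.4%, Krt17 at 36.6% against 2.2% and Krt14 at 26.8% against 2.0%, per the authors' deposited table. The basal keratins therefore came last here, whereas Krt14 came first in cluster 13. Over the genes listed for cluster 9, the median share was 7.0% inside and 67.7% outside it in the authors' deposited table, against 50% and 59.8% for cluster 13. Most genes were thus found in few cells of cluster 9, and the part of this in its lower keratin shares was not tested.

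FGF2 cluster 11 held all 6 members. Krt18 led with 74.2% of its cells against 11.5% of all other FGF2 cells in the authors' deposited table. Epcam was at 73.5% against 2.5%, and Krt8 at 62.5% against 2.6%, in the same authors' deposited table. Krt14 was listed at 50.5% against 0.8%, Krt17 at 49.1% against 1.5% and Krt7 at 29.2% against 3.5% in the authors' deposited table. Krt7 was last here, while it equalled Krt8 in control cluster 9. No spread between libraries was to be had for any of these orders.

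**Figure D1:**
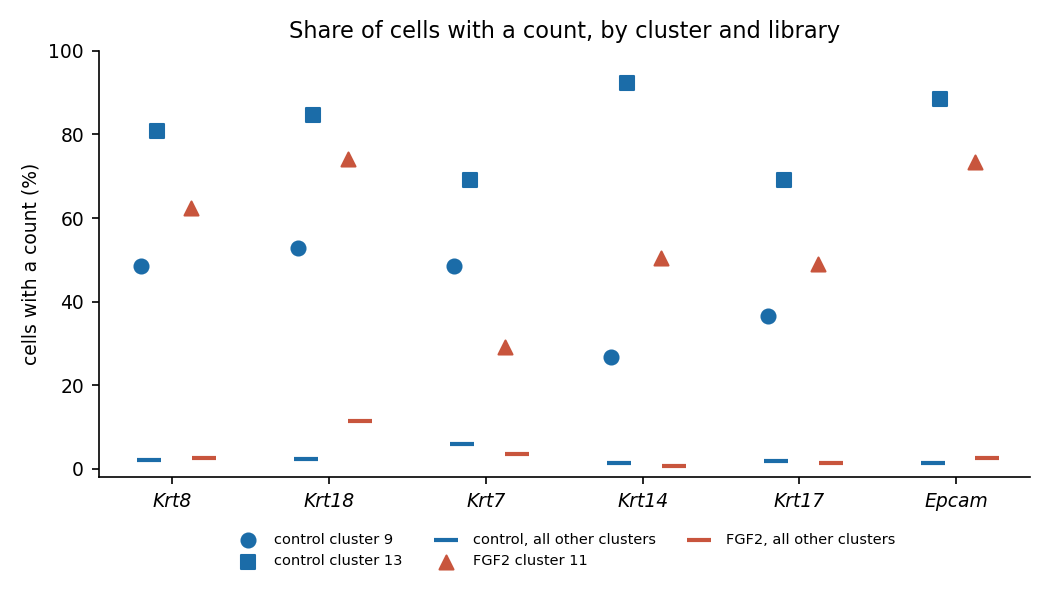
Percentage of cells with a count of each member in control clusters 9 and 13, in FGF2 cluster 11 and in all other clusters of each library (dashes). Outside the epithelial clusters most dashes lie under 4%, with Krt7 in the control library (6.03%) and Krt18 in the FGF2 library (11.5%) above; the control dash of Epcam includes cluster 9, for which it has no entry.

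For 4 of the 5 keratins with an entry in both control clusters, the log ratio was larger in cluster 9, where the share was smaller. In cluster 9, the log2 ratio of the cluster average over that of the other cells was 4.33 for Krt18, 3.99 for Krt8, 3.77 for Krt17, 3.39 for Krt7 and 2.63 for Krt14 in the authors' deposited table. The values of cluster 13 were 3.28 for Krt14, 3.04 for Epcam, 2.07 for Krt17, 1.92 for Krt7, 1.76 for Krt8 and 1.56 for Krt18 in the authors' deposited table. FGF2 cluster 11 had 3.61 for Krt18, 3.36 for Epcam, 2.92 for Krt8, 2.48 for Krt17, 1.96 for Krt14 and 1.55 for Krt7 in the authors' deposited table. All averages carry an offset of 1, so the ratio of a low gene is understated. All 17 entries of the members in the library tables were for epithelial clusters, and all were higher and past 1.5-fold. Of all genes tested, 0.745% passed this size upward in control cluster 9, 2.31% in cluster 13 and 0.828% in FGF2 cluster 11. The clusters were made from the same cells and genes, so these counts describe the clusters and test nothing.

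The averages of the 2 control clusters can be set against each other, since both refer to the same library. The average (plus the offset) of Krt18 was 4.46-fold higher in cluster 9 than in cluster 13, at 0.624 times the share. Krt8 was 3.34-fold higher, Krt17 2.44-fold and Krt7 2.21-fold, each at a smaller share of cells. Krt14 was lower in cluster 9, at 0.583 times the average of cluster 13 and 0.290 times the share. Among the 519 genes listed for both clusters the median log2 ratio was 0.00, and 47.2% had a higher average at a smaller share in cluster 9. Krt18 and Krt8 held places 2 and 3 from the top of these 519 genes, with Krt17 and Krt7 at places 14 and 17 and Krt14 at place 465. The way the authors normalized each cell is not given in the sources used here, and its part in the high averages of cluster 9 was not tested.

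**Figure D2:**
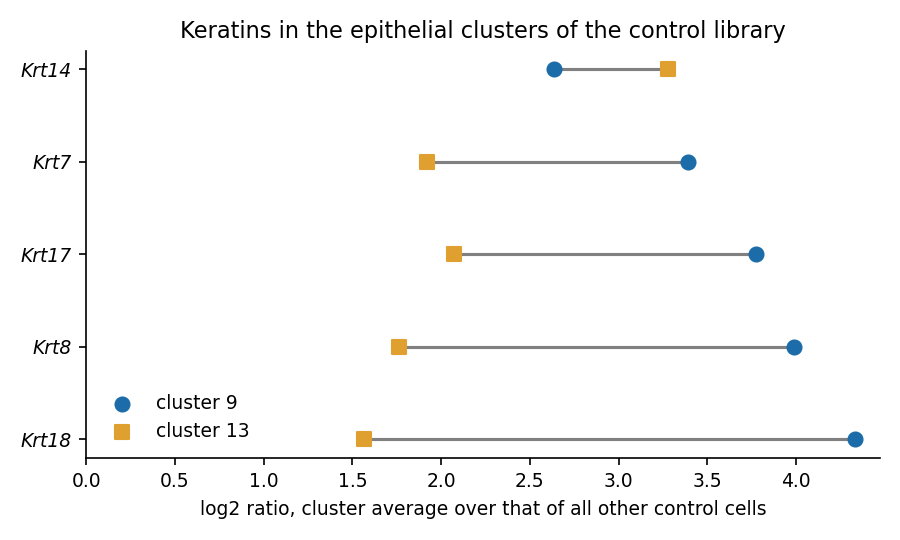
Log2 ratio of the cluster average over that of all other control cells for the 5 keratins listed in both clusters, with circles for cluster 9 and squares for cluster 13. Krt18 differs most (4.33 against 1.56), and Krt14 alone of the 5 has the larger value in cluster 13.

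Epcam in control cluster 9 can be bounded though it has no entry. The share of Epcam over all control cells was recovered as 1.85%, and cluster 13 held 24.7% of the cells with a count. If all the others lay in cluster 9, its share there would be 49.2%, and if none did, 1.44% of the cells outside both epithelial clusters would hold it. The share over both control epithelial clusters therefore lay between 13.7% and 55.3% by the arithmetic alone. No entry of the control table has a larger share below 25.1%. If Epcam has no entry for cluster 9 because its share lay under that value, the share over both epithelial clusters was below 34.9%. A missing entry can also come from the limits on the log ratio or the p-value, so the wider range is kept. Both upper values are below the 73.5% of FGF2 cluster 11 in the authors' deposited table. In cluster 13 alone, Epcam was at 88.5% in the authors' deposited table, above FGF2 cluster 11. The order thus rests on which control cluster is taken.

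Outside the epithelial clusters no member had an entry in either library table. An entry needs a share of about 25% in the cluster or outside it, so a missing entry does not mean that a gene was absent. The pooled share over all clusters without an entry could still be recovered. In the 13 other control clusters it was 6.03% for Krt7, 2.36% for Krt18, 2.08% for Krt8, 1.83% for Krt17 and 1.5% for Krt14. In the 16 other FGF2 clusters it was 11.5% for Krt18, 3.50% for Krt7, 2.60% for Krt8, 2.50% for Epcam, 1.5% for Krt17 and 0.8% for Krt14. With 1 entry for each member, these FGF2 values restate the deposited shares of the cells outside cluster 11. The single clusters behind these pooled values cannot be told apart, and no share was to be had for a cell type that should lack keratins, such as macrophages, as a measure of free RNA.

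Because the epithelial clusters are small, most cells with a count of some members lay elsewhere. In the control library the epithelial clusters held 47.1% of the cells with a count of Krt8, 45.8% of those of Krt18, 46.0% of those of Krt14, 44.1% of those of Krt17 and 22.9% of those of Krt7. In the FGF2 library cluster 11 held 65.2% of the Krt14 cells, 49.2% of the Krt17 cells, 46.6% of the Epcam cells and 41.6% of the Krt8 cells. Krt7 was at 19.8% and Krt18 at 16% in cluster 11. Krt18 thus went from a value next to that of Krt8 in the control library to the lowest of the 6 in the FGF2 library.

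**Figure D3:**
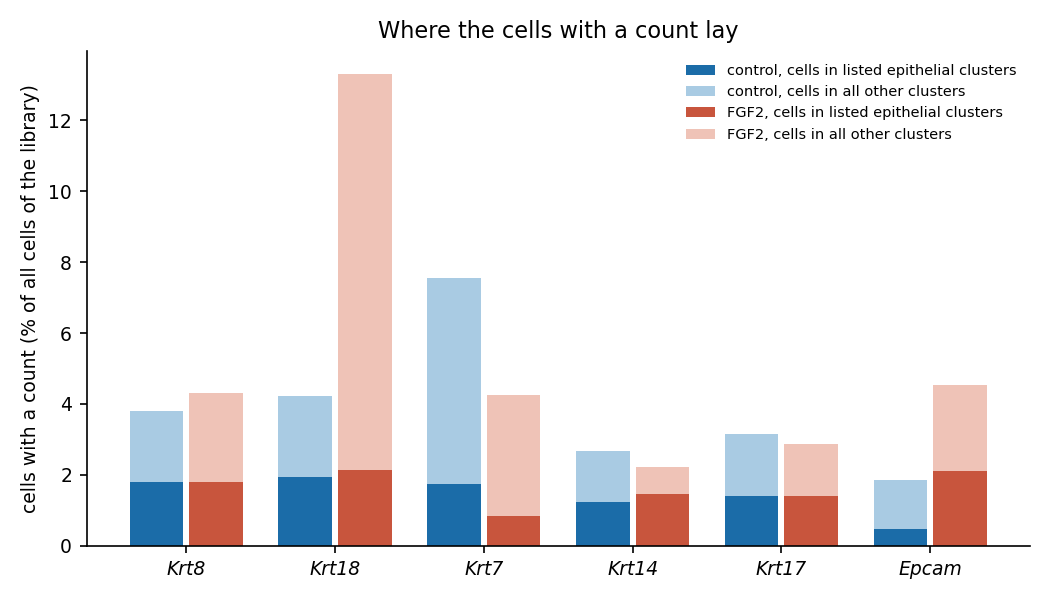
Cells with a count of each member as a percentage of all cells of the library, split into those in the listed epithelial clusters (dark) and all others (pale); for Epcam in the control library the dark part is cluster 13 alone. The pale part is largest for Krt18 in the FGF2 library, where 13.3% of all cells had a count.

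Between the libraries, Krt18 and Epcam had larger shares with FGF2 and Krt7 a smaller one. Krt18 was found in 4.22% of all control cells and 13.3% of all FGF2 cells, 3.16-fold more. Over the non-epithelial clusters alone it was 2.36% and 11.5%, 4.86-fold more. Within the epithelial clusters its share was 57.7% in the control library and 74.2% with FGF2, within the 1.5-fold used here as the size rule. The larger value of Krt18 with FGF2 was therefore mostly one of cells outside the epithelial clusters. Its filament partner Krt8 lay within the rule in all 3 views, at 3.8% and 4.32% of all cells, 2.08% and 2.60% outside the epithelial clusters, and 53.6% and 62.5% inside them.

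Epcam was found in 1.85% of all control cells and 4.54% of all FGF2 cells, 2.45-fold more. Outside the epithelial clusters it was at most 1.44% in the control library and 2.50% with FGF2, at least 1.73-fold more. Krt7 went the other way, with 7.56% of all control cells and 4.24% of all FGF2 cells, 0.561 times the control share. Its shares were smaller with FGF2 inside the epithelial clusters (51.8% and 29.2%) and outside them (6.03% and 3.50%) alike.

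The basal keratins differed little over all cells, at 2.68% and 2.23% for Krt14 and 3.16% and 2.87% for Krt17. Inside the epithelial clusters Krt14 was at 36.9% in the control library and 50.5% with FGF2, and outside them at 1.5% and 0.8%. The control value inside rests on which cluster is taken, with 92.3% in cluster 13 alone, above that of FGF2, and 26.8% in cluster 9 alone, below it. Krt8, Krt18 and Krt17 too had larger shares in cluster 13 alone than in FGF2 cluster 11, and smaller ones in cluster 9 alone. Outside the epithelial clusters the Krt14 share with FGF2 was past 1.5-fold downward, 0.533 times the control share. Over all cells Krt14 was within the rule. Krt17 was at 41.6% and 49.1% inside and 1.83% and 1.5% outside, within the rule in both.

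By the share over all cells, 2 of the 6 members were higher with FGF2, 1 was lower and 3 lay within 1.5-fold. Of the 2323 genes listed in both library tables, 7.58% were higher and 15.2% lower by the same rule, with a median log2 ratio of -0.08. The ratio of Krt18 was reached or passed by 43 of them, itself included. All 6 members belong to the 224 genes whose share, averaged over both libraries, was below 10%, of which 50 were higher and 112 lower.

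Set against Krt8, some members did not keep the same proportions inside and outside the epithelial clusters. In the control library Krt7 departed most, and Krt18 nearly kept its proportion. The detection rate (minus the natural log of the part of cells without a count) of Krt18 was 1.12 times that of Krt8 in the control epithelial clusters and 1.14 times outside them. In the FGF2 library the same ratio was 1.38 inside cluster 11 and 4.64 outside it. For Krt7 over Krt8 it was 0.951 inside and 2.96 outside in the control library, and 0.352 and 1.35 in the FGF2 library. Krt17 over Krt8 was 0.702 inside and 0.877 outside in the control library, and 0.689 and 0.574 with FGF2. Krt14 over Krt8 was 0.600 inside and 0.719 outside in the control library, and 0.717 and 0.305 with FGF2. For Epcam over Krt8 the FGF2 values were 1.35 inside and 0.961 outside. The part of free RNA in the counts outside the epithelial clusters was not tested.

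Reads shared with other genes were looked for at the 3' ends, which this assay counts. Of all runs of 50 bases in the last 500 bases of the coding transcripts, 9.53% of those of Krt14 and of Krt17 also occur in each other or in Krt16, so some counts of these paralogs may have been split or dropped. For Krt18 it was 1.11%, shared with Gm5200, and for Krt7, Krt8 and Epcam 0 runs were shared. How the authors' counting treated such reads is not given in the sources used here.

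Lists of epithelial markers, some of which include members, set the members in context. Of the 7 listed markers of simple epithelium, which include 4 of the members, 5 were past 1.5-fold upward in control cluster 13, 4 in FGF2 cluster 11 and 3 in control cluster 9. Those counted in FGF2 cluster 11 and control cluster 9 were all members, so these counts restate the members' own entries. In cluster 13 only Cdh1 was not a member. Cdh1, the cadherin of epithelial junctions, was at 76.9% of cluster 13 against 0.5% of the other cells in the authors' deposited table and had no entry for the other 2 clusters. The 15 basal and myoepithelial markers include the members Krt14 and Krt17. Of the 15, 9 were higher in cluster 13, 7 in FGF2 cluster 11 and 2, Krt14 and Krt17, in cluster 9. Cluster 9 also had 3 of these markers on the lower side, Acta2 (log2 ratio -1.12, past 1.5-fold), Cnn1 (-0.45) and Dst (-0.38), in the authors' deposited table. Krt5, the partner of Krt14, was found in 61.5% of cluster 13 against 0.5% (log2 ratio 2.44) in the authors' deposited table and was not listed in the FGF2 table. Trp63, the transcription factor p63 of basal cells, was at 76.9% against 0.3% in cluster 13 and 34.0% against 0.3% in FGF2 cluster 11, per the authors' deposited tables. The smooth muscle actin gene Acta2, which myoepithelial cells share with myofibroblasts, was at 70.1% of FGF2 cluster 11 against 30.8%, and at 62.7% of control cluster 9 against 90.7%, in the authors' deposited tables.

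Junction and transcription factor genes had fewer entries for control cluster 9 than for cluster 13, as had genes of all kinds on the higher side (142 against 440 of the genes tested, 0.745% and 2.31%). Of 16 junction genes 7 were higher by the rule in cluster 13, 6 in FGF2 cluster 11 and 1 in cluster 9. The desmosome gene Dsp was at 84.6% and Perp at 88.5% of cluster 13, against 37.5% and 56.0% of FGF2 cluster 11, in the authors' deposited tables. Jup, which encodes plakoglobin, was the 1 listed for cluster 9. Of 14 epithelial transcription factors 5 were higher by the rule in cluster 13, among them Ehf, Sox9 and Trp63, 3 in FGF2 cluster 11 and 0 in cluster 9. Of 17 secretory, acinar and duct genes, 2 were higher in cluster 9 and in cluster 13, Wfdc18 and Wfdc2, and 4 in FGF2 cluster 11. These 4 included Aqp5, the water channel of acinar cells, at 37.1% against 8.9% in the authors' deposited table.

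Fibroblast markers were lower in all 3 epithelial clusters, with 11 of 12 past 1.5-fold downward in control clusters 9 and 13 and 12 of 12 in FGF2 cluster 11. In the background, 1.81%, 1.63% and 1.14% of the genes tested passed this size downward. Their shares did not reach 0, and ranged from 2.1% to 43.0% in cluster 9, from 11.5% to 84.6% in cluster 13 and from 7.6% to 54.6% in cluster 11, per the authors' deposited tables. Col1a2, a fibrillar collagen gene, was at 76.9% of cluster 13 against 93.3% in the authors' deposited table. Of the endothelial, macrophage, mast cell and cycling markers, 0 had an entry for the 3 clusters. The part of free RNA and of doublets in the fibroblast shares was not tested.

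**Figure D4:**
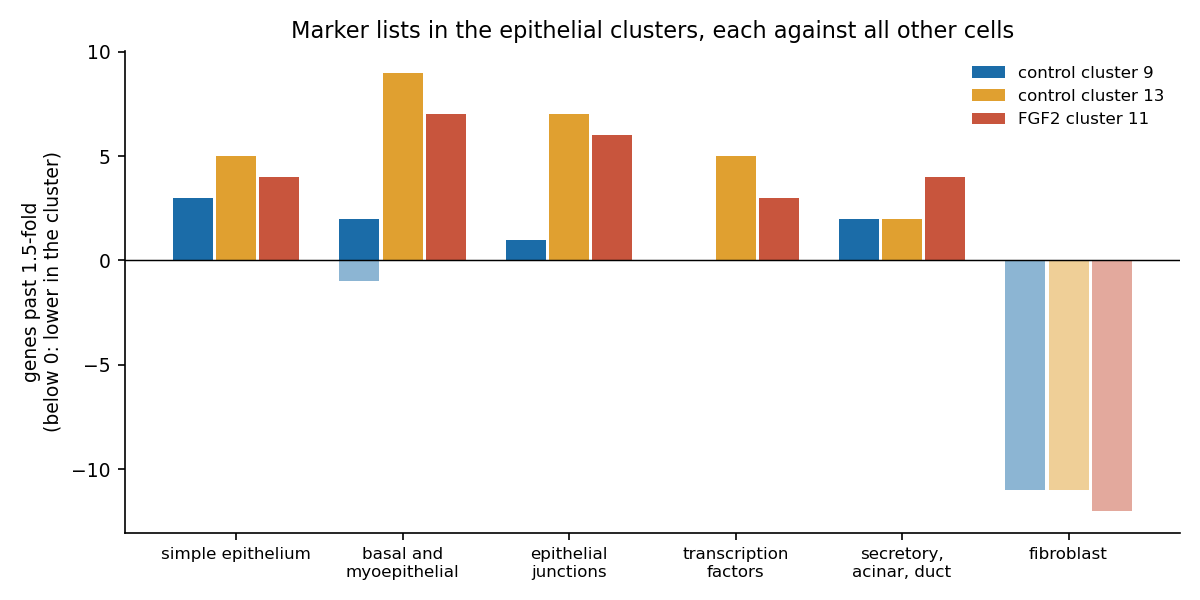
Number of genes of 6 marker lists that were past 1.5-fold higher (above 0) or lower (below 0, pale) in control clusters 9 and 13 and FGF2 cluster 11, each against all other cells of its library. The lists of simple epithelium and of basal and myoepithelial cells include members. Cluster 13 has the most basal, junction and transcription factor genes, cluster 9 has 0 of the transcription factors, and fibroblast genes are lower in all 3.

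The genes whose log ratios over all clusters were most like those of a member, with 0 for a missing entry, were then named. Only genes listed in at least 2 clusters of the table were candidates. In the control table (15 clusters), Krt18 was the gene most like Krt8 (Pearson r = 0.997), and Krt17 came next (0.996). Krt7 and Krt17 were like each other and like Myl12b, a myosin light chain gene, with r = 1.0 in each case. Krt14 was most like Zfp652, Aig1 and Oxr1 (1.0 each), and Epcam most like Igfbp5 (0.989), Rflnb (0.979) and Auts2 (0.963). Between Epcam and the keratins r ran from 0.279 for Krt18 to 0.762 for Krt14. In the FGF2 table (17 clusters) every member has 1 entry, so the measure cannot separate them. The same pattern was found for 131 of 3058 listed genes, the members among them, and these have r = 1 with each other. Among the candidates, Chil1 (0.996), Aqp5 (0.973) and Ndrg1 (0.972) came closest to every member. A pattern of higher entries in control clusters 9 and 13 and no entry in any other was found for 45 of 4419 listed genes, the 5 keratins among them. A higher entry for cluster 13 and no other entry, as for Epcam, was found for 354. Those genes have r = 1 with each other but were not candidates, so Igfbp5 was closest to Epcam among the candidates only. An r over so few filled clusters is a description and carries no test.

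In the integrated table the members marked cluster 9, and Krt18, Krt8 and Epcam also had entries elsewhere. Its values were made comparable between the libraries, and its log ratios were read as natural log like those of the library tables, without a check of their own. A difference there is one of integrated values, not expression, and a share counts values above 0, not reads. Epcam was above 0 in 82.1% of integrated cluster 9 against 27.3% of the other cells (log2 ratio 3.32) in the authors' deposited table. Krt18 was at 72.3% against 38.5% (3.74), Krt17 at 64.6% against 13.1% (3.02) and Krt8 at 59.4% against 21.4% (3.01), per the authors' deposited table. Krt14 was at 51.7% against 16.2% (2.25) and Krt7 at 40.4% against 25.9% (2.29) in the authors' deposited table. The shares outside the epithelial cluster are thus far above those of the library tables.

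Krt18 had 7 lower entries, for integrated clusters 0, 1, 2, 3, 5, 7 and 10, and Epcam had 8, for the same clusters and cluster 6. Their shares and ratios often pointed opposite ways. Krt18 was above 0 in 72.7% of integrated cluster 2, led by Acta2, Tagln and Thbs1, against 33.7% of the other cells, yet its log2 ratio there was -0.64 in the authors' deposited table. Epcam was at 71.8% against 21.5% in that cluster with a log2 ratio of -0.43, per the authors' deposited table. In integrated cluster 1, led by Igfbp5, Slpi and Il11, shares and ratios pointed the same way, with Krt18 at 10.1% against 45.3% and Epcam at 2.6% against 34.2%, in the authors' deposited table. Of the 268 genes listed for integrated cluster 2, 128 had a higher share with a lower ratio, and 13.9% of all entries of the integrated table did. Such entries, with a higher share and a lower ratio, made up 6.72% of the control table and 3.75% of the FGF2 table, and none of the members was among them there. For integrated cluster 9, where all 6 members were past 1.5-fold upward, 4.78% of the genes tested passed that size upward and 4.71% downward. A share above 0 in the integrated table therefore does not say that a stromal cluster held more keratin RNA.

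**Figure D5:**
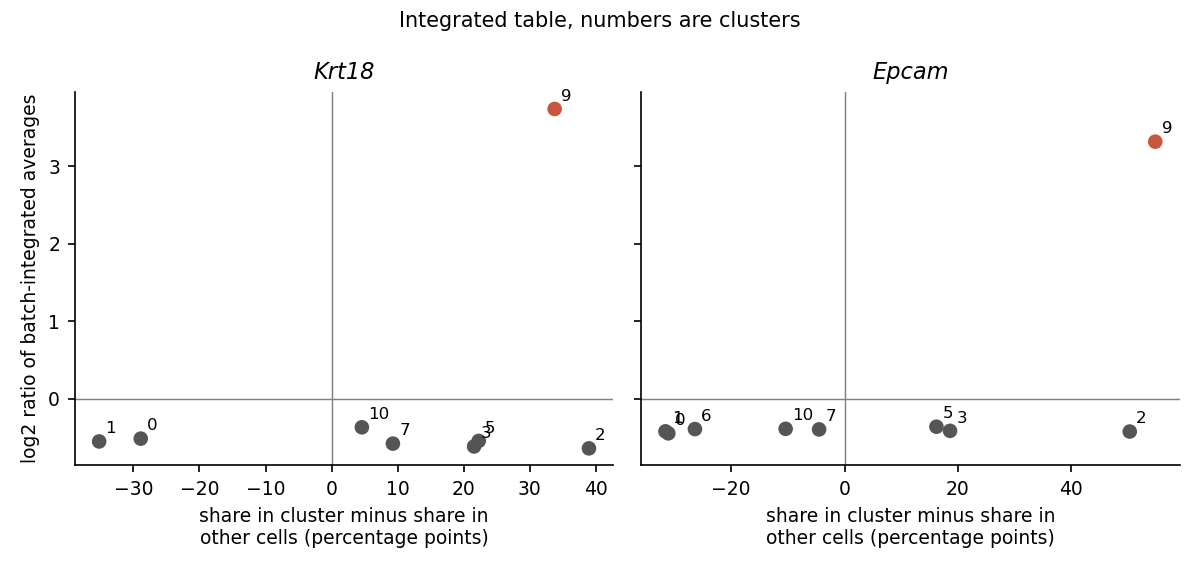
Log2 ratio of batch-integrated averages against the difference in share (cluster minus other cells, in percentage points) for each integrated cluster with an entry for Krt18 or Epcam. Cluster 9 stands apart at the top, and the other clusters lie below 0 on the vertical axis whether their share is smaller or larger.

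Of the other keratins, 4 had an entry in any table. Krt80 was listed at 38.5% of control cluster 13 against 2.1% and at 30.6% of FGF2 cluster 11 against 1.2%, in the authors' deposited tables. Its ratio in control cluster 13, 1.48-fold, was under the size rule, and that in FGF2 cluster 11, 1.86-fold, was past it. Krt6a (38.0% against 6.7%) and Krt23 (46.3% against 24.5%) were listed for integrated cluster 9 alone, in the authors' deposited table. Krt5, named above, was also listed for integrated cluster 9 (27.5% against 5.3%), as was Krt80 (56.6% against 19.7%), in the authors' deposited table. Krt19, Krt20 and Krt15 of the lists had no entry in the 3 tables, which does not show that they were absent.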

How the data were processed

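Single cells of 1 control and 1 FGF2 organoid library were measured by 10x Chromium 3' sequencing, per the labels' protocols. Cell Ranger 4.0 and mm10 are named in the submitters' processing notes. The tables deposited for the series hold, per the file headers, each cluster set against the remaining cells of the table. The log ratio was deposited by the authors and read as natural log, which was checked on genes with no positive cell (median coefficient of variation 0.00169% in the control table against 0.0488% with base 2). The check rested on 8 genes in the control table and 5 in the FGF2 table. The integrated table had 0 such genes, so its base was taken from the library tables. The shares are fractions deposited by the authors, printed as percentages. The authors' p-values come from single cells and are not printed.

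Each cluster's part of all cells was fitted by least squares over genes listed in at least 2 clusters (2077 control and 1490 FGF2 genes), with Python 3.11.15, numpy 2.4.6 and pandas 2.3.3. A member's share over all cells, and over the clusters without an entry, followed from these parts. The parts summed to 100.04% and 99.95%. Entries of 1 gene gave shares within 0.0737 points. Simulated tables were built from the same relation as the fit, so only rounding could cause error there. The largest error of a gene's share on them was 0.0572 points (control, 4419 genes) and 0.0506 points (FGF2, 3058 genes). Averages between clusters came from the log ratios and parts. The design had been laid out for shares and log ratios.

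Named were the 6 members, other keratins, the 3 genes most like each member among those listed in at least 2 clusters, and genes of marker lists. The members and lists were chosen with earlier results of these data known. Examples within the lists were partly chosen after their values were seen. No test was made, since each group has 1 library. The alternatives were the fit, the size rule, the clusters pooled and the base of the log.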

Additional observations from a re-analysis of the deposited data

How the results depend on the processing

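Shares over all cells changed little when the fit used genes listed in at least 4 clusters. They and the shares over clusters without an entry also changed little when parts were scaled to add up. When 1 entry was used, the Krt7 share over all control cells went from 7.56% to 7.52%. Control Epcam and all members in the FGF2 library have 1 entry only, so that setting could not change their shares. With cluster 13 as the only control epithelium, the shares were 69.2% for Krt7, 80.8% for Krt8, 84.6% for Krt18, 92.3% for Krt14 and 69.2% for Krt17, and with cluster 9 alone Krt14 was 26.8%. On cluster 13 alone, all 5 keratins were therefore above FGF2 cluster 11, as was Epcam at 88.5%. Without clusters of low listed shares, held at 0, Krt7 outside the epithelium was 6.77% in the control library. Members lower with FGF2 numbered 1 by 1.5-fold, 0 by 2-fold and 2 over non-epithelial clusters. Reading the ratios as log2 kept all 17 entries past 1.5-fold. No paired analysis was possible because each group has 1 library. The depth per cell is unknown, which limits any comparison of shares between libraries.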

Other observations

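Tfap2c and Itga6 were not restricted to the epithelial clusters in the FGF2 library. Tfap2c, a transcription factor of epithelium, was at 34.6% of control cluster 13 against 1.0% of the other control cells, and at 27.5% of FGF2 cluster 11 against 20.8% of the other FGF2 cells, in the authors' deposited tables. Itga6 was at 96.2% against 19.3% in control cluster 13 (log2 ratio 3.15), so it was not restricted there either, per the authors' deposited table. In FGF2 cluster 11 it was at 57.4% against 49.0%, with a higher average (log2 ratio 1.73), per the authors' deposited table. By contrast Sox10, which Schwann cells share with acinar and myoepithelial cells, was at 30.8% of control cluster 13 against 1.8% and 25.4% of FGF2 cluster 11 against 0.4%, in the authors' deposited tables. In control cluster 9, Jup (14.1% against 34.6%) and Slc12a2 (6.3% against 35.0%) had smaller shares with higher averages, at log2 ratios of 1.0 and 0.55 in the authors' deposited table.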
